A study of Mus musculus with 8 samples.

Results

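The 10 genes described here make up the core of the MHC class I antigen presentation pathway of the mouse, and they were taken by symbol from the 41325 genes listed in the deposited expression tables. They encode the classical heavy chains (H2-K1 and H2-D1), the shared light chain (B2m), the peptide transporter and its bridge to class I (Tap1, Tap2 and Tapbp), the inducible catalytic subunits of the immunoproteasome (Psmb8, Psmb9 and Psmb10) and the class I transactivator Nlrc5. Their mRNA was measured in C3H10T1/2 cells, a mesenchymal stem cell line derived from mouse embryos that can be turned into adipocytes. 4 stable lines were compared, namely a control line (shControl, labelled WT) and lines with knockdown of the histone demethylase KDM4D (shKDM4D), of the transcription factor NFIB (shNFIB) or of the histone methyltransferase MLL1 (shMLL1, whose gene is Kmt2a). Each line was sequenced before induction (day 0, in post-confluent culture) and at day 5 of adipogenic differentiation, which gave 8 libraries, 1 for each line and day. The knockdown lines were made with pLKO.1 shRNA vectors and puromycin selection and were grown from resistant clones. How the control line was made, and which clone of each knockdown was sequenced, was not stated. In the day 5 cultures adipogenesis had been induced with 10 µg/ml insulin, 1 µM dexamethasone and 0.5 mM isobutylmethylxanthine in 10% serum, so the control received the same inducers as the knockdown lines. By the schedule of the paper the full mix came first, then insulin alone, then serum medium without inducers before day 5.

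The study asked which genes depend on KDM4D, NFIB and MLL1 during adipogenesis, and the class I pathway is followed here through the same libraries. In this pathway the proteasome cuts cytosolic proteins into peptides, the TAP transporter moves the peptides into the endoplasmic reticulum, tapasin (Tapbp) holds empty class I molecules at the transporter, and the loaded complex of heavy chain and β2-microglobulin is displayed to CD8+ T cells. Interferons raise the expression of the whole pathway, and Psmb8, Psmb9 and Psmb10 then replace the standard subunits Psmb5, Psmb6 and Psmb7 in newly made proteasomes. Nearly all nucleated cells carry class I molecules, whereas the immunoproteasome subunits are abundant mainly in immune cells and in cells exposed to interferon.

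7 of the 10 genes lie on chromosome 17, in the major histocompatibility complex (GRCm38 coordinates). These are Tapbp (chr17:33915899-33929292, plus strand), H2-K1 (chr17:33996017-34000347, minus strand), Psmb9 (chr17:34181987-34187764, minus strand), Tap1 (chr17:34187553-34197225, plus strand), Psmb8 (chr17:34197721-34201454, plus strand), Tap2 (chr17:34203527-34216321, plus strand) and H2-D1 (chr17:35262730-35267499, plus strand). B2m lies at chr2:122147686-122153083, Nlrc5 at chr8:94434356-94527272 (both plus strand) and Psmb10 at chr8:105935735-105938444 (minus strand). Tap1 and Psmb9 are divergent neighbours whose annotated ends overlap by 212 bases on opposite strands.

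Start-site windows of 5 of the genes are shown as examples. All 10 genes, not only these 5, were higher than in shControl at day 5 in the shNFIB and shMLL1 libraries described below. RefSeq windows reaching from 250 bases before to 50 bases after the start were at hand for 8 of the 10 genes, and not for Tap2 or Nlrc5. Those of Tapbp, Psmb9 and Psmb10 are not shown. The windows are H2-K1 (chr17:34000298-34000597, minus strand), H2-D1 (chr17:35262844-35263143), B2m (chr2:122147437-122147736), Tap1 (chr17:34187306-34187605) and Psmb8 (chr17:34197945-34198244, the last 4 on the plus strand), all in GRCm38.p6 and read 5′ to 3′ along the gene. Capitals mark matches, on either strand, to the motifs described after the sequences.
H2-K1: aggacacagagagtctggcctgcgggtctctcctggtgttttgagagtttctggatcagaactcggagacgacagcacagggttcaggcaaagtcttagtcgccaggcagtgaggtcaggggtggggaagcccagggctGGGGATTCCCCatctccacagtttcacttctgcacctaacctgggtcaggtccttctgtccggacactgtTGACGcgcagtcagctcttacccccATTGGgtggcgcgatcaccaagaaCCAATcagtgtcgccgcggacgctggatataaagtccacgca
H2-D1: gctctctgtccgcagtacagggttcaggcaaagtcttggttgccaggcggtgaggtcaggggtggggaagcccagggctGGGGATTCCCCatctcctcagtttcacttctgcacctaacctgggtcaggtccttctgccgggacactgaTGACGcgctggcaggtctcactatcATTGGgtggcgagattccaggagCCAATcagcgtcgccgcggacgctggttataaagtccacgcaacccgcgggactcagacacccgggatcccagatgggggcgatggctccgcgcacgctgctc
B2m: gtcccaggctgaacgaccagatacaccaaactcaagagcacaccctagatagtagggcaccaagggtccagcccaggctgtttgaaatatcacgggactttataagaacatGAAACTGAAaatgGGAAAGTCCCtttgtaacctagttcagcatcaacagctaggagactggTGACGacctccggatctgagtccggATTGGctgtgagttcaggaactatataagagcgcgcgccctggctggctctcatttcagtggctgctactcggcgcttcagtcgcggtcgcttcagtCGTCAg
Tap1: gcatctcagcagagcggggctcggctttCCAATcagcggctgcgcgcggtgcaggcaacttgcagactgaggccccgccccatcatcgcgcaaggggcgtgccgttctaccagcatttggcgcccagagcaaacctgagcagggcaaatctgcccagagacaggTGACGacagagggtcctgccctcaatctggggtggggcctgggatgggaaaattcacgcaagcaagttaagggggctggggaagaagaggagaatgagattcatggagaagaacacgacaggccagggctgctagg
Psmb8: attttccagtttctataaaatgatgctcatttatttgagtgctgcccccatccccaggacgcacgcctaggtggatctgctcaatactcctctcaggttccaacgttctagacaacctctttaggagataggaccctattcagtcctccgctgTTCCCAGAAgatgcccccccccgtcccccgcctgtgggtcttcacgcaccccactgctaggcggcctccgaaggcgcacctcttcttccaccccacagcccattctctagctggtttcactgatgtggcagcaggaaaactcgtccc

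The IRF motif (GAAANNGAA) was present in the window of B2m, starting 139 bases before the start, and in 8.56% of all 32851 windows. Only this pattern was searched for, so related sites with other letters or spacing were not counted. The kappa B motif was found in B2m (126 bases before the start), H2-K1 (111) and H2-D1 (171), that is in 3 of 8 windows, against 4.51% of all windows. The GAS motif (TTCNNNGAA) occurred in Psmb8 alone among the 8, 97 bases before the start, and in 8.30% of all windows. CCAAT boxes occurred in 6 of the 8 windows (H2-K1, H2-D1, B2m, Tap1, Psmb9 and Tapbp) and in 37.4% of all. TGACG, the core of the cyclic AMP response element, was added after the windows had been looked at and occurred in 5 of 8 (H2-K1, H2-D1, B2m, Tap1 and Psmb9) and in 20.8% of all. In both heavy chain genes the kappa B match began 70 bases upstream of TGACG. The windows of Tap1 and Psmb9 share 275 bases of the same DNA, so their matches are not independent. Those of H2-K1 and H2-D1 hold nearly the same letters around and between these matches, so they are not independent either. The shares count all 32851 windows, whereas each of the 8 genes entered with 1 window. The window of Psmb10 held none of the 5 motifs. Each kappa B match of a heavy chain gene was matched again 1 base further on, and no other matches overlapped. These matches describe letters in the reference of the C57BL/6J strain. C3H10T1/2 cells stem from C3H mice, whose H-2 haplotype differs from that of the reference strain, and the effect of such differences on the mapping to H2-K1 and H2-D1 was not tested.

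The libraries held between 15842221 and 38202580 mapped reads, with the shMLL1 libraries the deepest and shNFIB day 5 the shallowest. Expression is given as RPKM, the reads of a gene scaled to its exon length and to the mapped reads of the library. Because each line and day is 1 library, no spread between replicates can be estimated and no test between conditions was run. Ratios are given on the log2 scale with an exact 95% interval, which covers counting error only. A gene was counted as changed when its RPKM differed by more than 2-fold, and the share of all 11513 genes with RPKM over 1 in at least 1 library that did so is given as the background. Nfib was lower in the shNFIB libraries (log2 ratio to shControl -2.10 at day 0 and -2.33 at day 5) and Kmt2a in the shMLL1 libraries (-1.37 and -1.70). Kdm4d had 1 read in shKDM4D and 2 in shControl at day 0, and 4 against 13 reads at day 5, so its knockdown was not detectable at day 0 at this depth. Of the mesenchymal markers, Thy1 stood at 25.0 and 22.6 RPKM in shControl (day 0 and day 5) and at 11.8 and 11.1 in shMLL1, but at 0.0171 and 0.139 in shKDM4D and 0.0179 and 0.0632 in shNFIB. Nt5e was at or below 0.0218 RPKM in all 8 libraries. The other 6 of the 8 mesenchymal markers were expressed in every library, with Pdgfrb between 34.6 and 72.2 RPKM and Cd44 between 15.7 and 40.2. Of the 7 markers above RPKM 1, 1 was more than 2-fold below shControl at day 0 in shKDM4D, 1 in shNFIB and 2 in shMLL1. The summed RPKM of the 7 adipocyte markers was 777 in shControl at day 5, against 12.3 in shMLL1, 12.0 in shNFIB and 38.6 in shKDM4D.

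All 10 genes had their highest level in shMLL1 at day 5 and their second highest in shNFIB at day 5, and the counting intervals of the ratios separated both from each other and from the next library. At day 5 shNFIB stood more than 2-fold above shControl in 8 of the 10 genes and shMLL1 in 9 of the 10, with none lower. The share of all genes that was higher was 5.54% in shNFIB and 5.25% in shMLL1. Before induction none of the 10 genes was more than 2-fold higher in any knockdown line than in shControl. The exceptions were Tap1 and Tap2 in shNFIB, which became so (log2 ratios of 1.14 for both) when levels were divided by those of Gapdh. In bulk RNA, fewer cells of a type and less RNA per cell cannot be told apart, so a level here is an average over the culture. 7 genes passed RPKM 1 in at least 1 library other than shNFIB and shMLL1 at day 5, whereas Psmb8 and Psmb9 passed it through those 2 libraries alone and Nlrc5 through shMLL1 at day 5 alone.

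**Figure D1:**
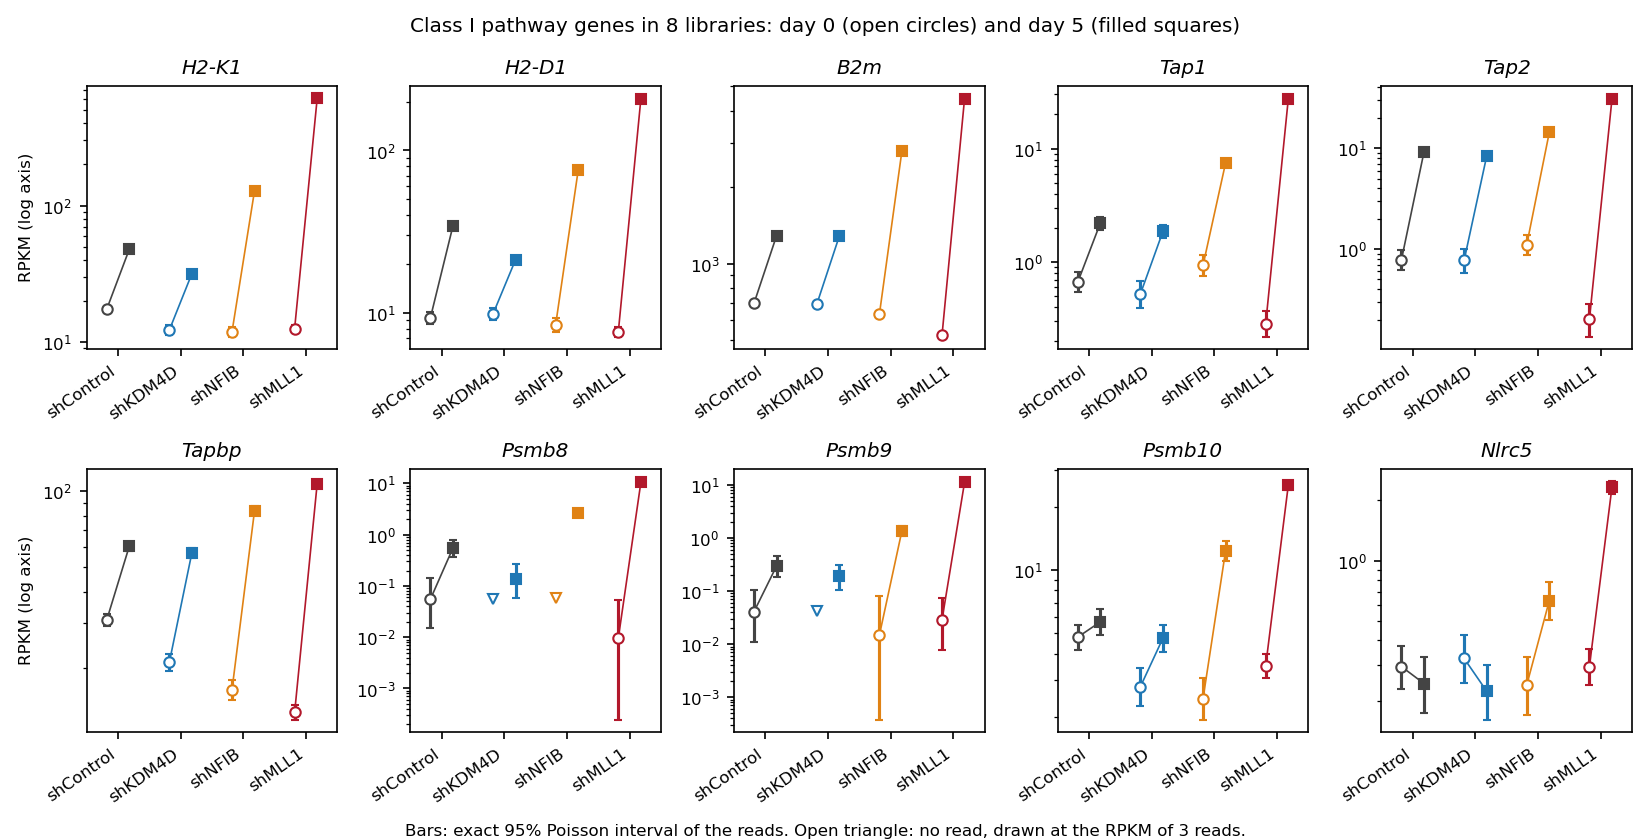
RPKM (log axis, a different range in each panel) of the 10 genes in the 4 lines at day 0 (open circles) and day 5 (filled squares), with exact 95% Poisson intervals of the reads. Open triangles stand for libraries with no read and are drawn at the RPKM of 3 reads. The shMLL1 day 5 square is the highest in every panel, from 2.33 RPKM for Nlrc5 to 4475 for B2m.

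H2-K1, a classical class I heavy chain, was expressed in every library. Its RPKM was 17.3 at day 0 and 47.6 at day 5 in shControl, 12.2 and 31.6 in shKDM4D, 11.8 and 128 in shNFIB, and 12.5 and 609 in shMLL1. The day 0 levels of the 3 knockdown lines were indistinguishable by counting error and all lay below shControl (log2 ratios between -0.47 and -0.55). At day 5 the log2 ratio to shControl was 1.43 (1.359 to 1.499) in shNFIB and 3.68 (3.62 to 3.74) in shMLL1, a 12.8-fold difference. In shKDM4D it was -0.59 (-0.68 to -0.50), within 2-fold.

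H2-D1, the second classical heavy chain, followed the same order at lower levels. It was listed at 9.32 and 34.3 RPKM in shControl (day 0 and day 5), 9.86 and 21.3 in shKDM4D, 8.48 and 75.8 in shNFIB and 7.65 and 208 in shMLL1. The day 0 libraries lay close together, between 7.65 and 9.86 RPKM, and neighbours in that order were not separated by their counting intervals. At day 5 the log2 ratio to shControl was 2.60 (2.53 to 2.67) in shMLL1, 1.14 (1.06 to 1.23) in shNFIB and -0.69 (-0.80 to -0.58) in shKDM4D. The RPKM ratio of H2-K1 to H2-D1 lay between 1.24 and 1.86 in 7 libraries and was 2.93 in shMLL1 at day 5. Of all 50-base stretches of their annotated transcripts, 9.63% for H2-K1 and 12.8% for H2-D1 also occur in other genes, above all H2-Q10, H2-Q1, H2-Q7 and each other, so part of their reads may have been shared out between class I genes.

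B2m, the light chain common to all class I molecules, was the most abundant of the 10 by far. Its RPKM was 699.9 and 1291 in shControl, 691 and 1283 in shKDM4D, 631 and 2783 in shNFIB, and 523 and 4475 in shMLL1, again in the order day 0, day 5. shControl and shKDM4D were within counting error of each other on both days. At day 5 shNFIB was 2.16-fold and shMLL1 3.47-fold above shControl (log2 ratios 1.11 and 1.79, with intervals of 1.08 to 1.13 and 1.77 to 1.81). The excess of light chain over heavy chain mRNA was smallest where both were highest. B2m RPKM divided by the sum of H2-K1 and H2-D1 was 26.3 and 15.8 in shControl, 31.3 and 24.3 in shKDM4D, 31.1 and 13.6 in shNFIB, and 25.9 and 5.48 in shMLL1. Patl2, annotated across the whole of B2m on the opposite strand, was listed at 0 in all 8 libraries.

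Tap1 encodes a subunit of the peptide transporter. It stood at 0.665 and 2.20 RPKM in shControl, 0.523 and 1.87 in shKDM4D, 0.939 and 7.49 in shNFIB, and 0.287 and 27.2 in shMLL1. shMLL1 was thus the lowest library at day 0 and the highest at day 5. Its log2 ratio to shControl was -1.21 (-1.70 to -0.73) at day 0, from 60 against 97 reads, and 3.63 (3.44 to 3.82) at day 5. shNFIB lay above shControl on both days, with a log2 ratio of 0.50 (0.08 to 0.92) at day 0 and 1.77 (1.55 to 1.99) at day 5.

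Tap2, the partner subunit, was more than 10-fold higher at day 5 than at day 0 in every line. Its RPKM was 0.784 and 9.19 in shControl, 0.772 and 8.32 in shKDM4D, 1.11 and 14.4 in shNFIB, and 0.201 and 30.6 in shMLL1. Day 5 was 13.0-fold above day 0 in shNFIB, 11.7-fold in shControl and 10.8-fold in shKDM4D, so these lines resembled each other, while shMLL1 went from the lowest to the highest level with a 152-fold ratio. Relative to shControl, shMLL1 had a log2 ratio of -1.97 (-2.63 to -1.34) at day 0, from 29 against 79 reads, and 1.73 (1.62 to 1.85) at day 5. The shNFIB ratio at day 5 was 0.64 (0.50 to 0.79), short of 2-fold. Gm15821, annotated on the opposite strand over 3148 bases of Tap2, was listed at 0 in every line at day 0. At day 5 it lay between 0.214 and 0.520 RPKM, highest in shMLL1. Whether the 2 genes share reads was not tested.

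Tapbp, which encodes tapasin, had the narrowest range of the transport and loading genes. It was listed at 30.9 and 60.5 RPKM in shControl, 21.1 and 57.1 in shKDM4D, 16.4 and 83.7 in shNFIB, and 13.3 and 107 in shMLL1. At day 0 the knockdown lines all lay below shControl, with log2 ratios of -1.21 (-1.34 to -1.09) in shMLL1, -0.92 (-1.07 to -0.77) in shNFIB and -0.55 (-0.69 to -0.42) in shKDM4D. At day 5 it was the gene with the smallest ratio to shControl in both shNFIB (0.47, 0.38 to 0.56) and shMLL1 (0.82, 0.75 to 0.90). Zbtb22, annotated on the same strand and overlapping Tapbp by 3422 bases, stayed between 11.2 and 12.8 RPKM in all libraries.

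The immunoproteasome subunits Psmb8 and Psmb9 were close to absent before induction. Psmb8 (the chymotrypsin-like subunit) had 4 reads in shControl at day 0, 1 in shMLL1 and 0 in both shKDM4D and shNFIB. A count of 0 allows up to 3 reads, so the day 0 differences between lines were not detectable at this depth. At day 5 Psmb8 had 1094 reads (10.5 RPKM) in shMLL1, 115 (2.65) in shNFIB, 29 (0.548) in shControl and 8 (0.135) in shKDM4D. The log2 ratio to shControl was 4.26 (3.73 to 4.84) in shMLL1 and 2.27 (1.68 to 2.92) in shNFIB, but -2.02 (-3.36 to -0.85) in shKDM4D. In shNFIB the day 5 level was at least 45.2-fold higher than day 0, taking 3 reads for the library at 0.

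Psmb9, the caspase-like site's replacement, had 4, 0, 1 and 4 reads at day 0 in shControl, shKDM4D, shNFIB and shMLL1. At day 5 it had 21 reads (0.297 RPKM), 15 (0.190), 79 (1.36) and 1566 (11.2) in the same order. shKDM4D and shControl overlapped in their counting error at day 5, and shMLL1 was 37.8-fold above shControl (log2 ratio 5.24, 4.62 to 5.94), the highest ratio of any of the 10 genes in the 6 comparisons with shControl. In shNFIB the ratio was 2.20 (1.49 to 2.97).

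Psmb10, the trypsin-like subunit's replacement, behaved as a gene expressed in all libraries. Its RPKM was 4.80 and 5.67 in shControl, 2.79 and 4.75 in shKDM4D, 2.45 and 12.4 in shNFIB, and 3.52 and 25.2 in shMLL1. In shControl the 2 days overlapped within counting error (log2 ratio 0.24, -0.05 to 0.53). Day 5 shNFIB and shMLL1 were 2.18-fold and 4.45-fold above shControl.

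Set against the standard subunit that it replaces, each inducible subunit took a larger part in shMLL1 at day 5. The RPKM of Psmb8 over that of Psmb5 was 0.307 in shMLL1, 0.0554 in shNFIB, 0.0160 in shControl and 0.00405 in shKDM4D at day 5. For Psmb9 over Psmb6 the day 5 ratios were 0.152, 0.0254, 0.00602 and 0.00541 in that order. Psmb10 over Psmb7 went from 0.167 to 1.26 in shMLL1, 0.120 to 0.617 in shNFIB, 0.246 to 0.317 in shControl and 0.134 to 0.264 in shKDM4D. Only this last pair, in shMLL1 at day 5, had more mRNA per length of the inducible than of the standard subunit.

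**Figure D2:**
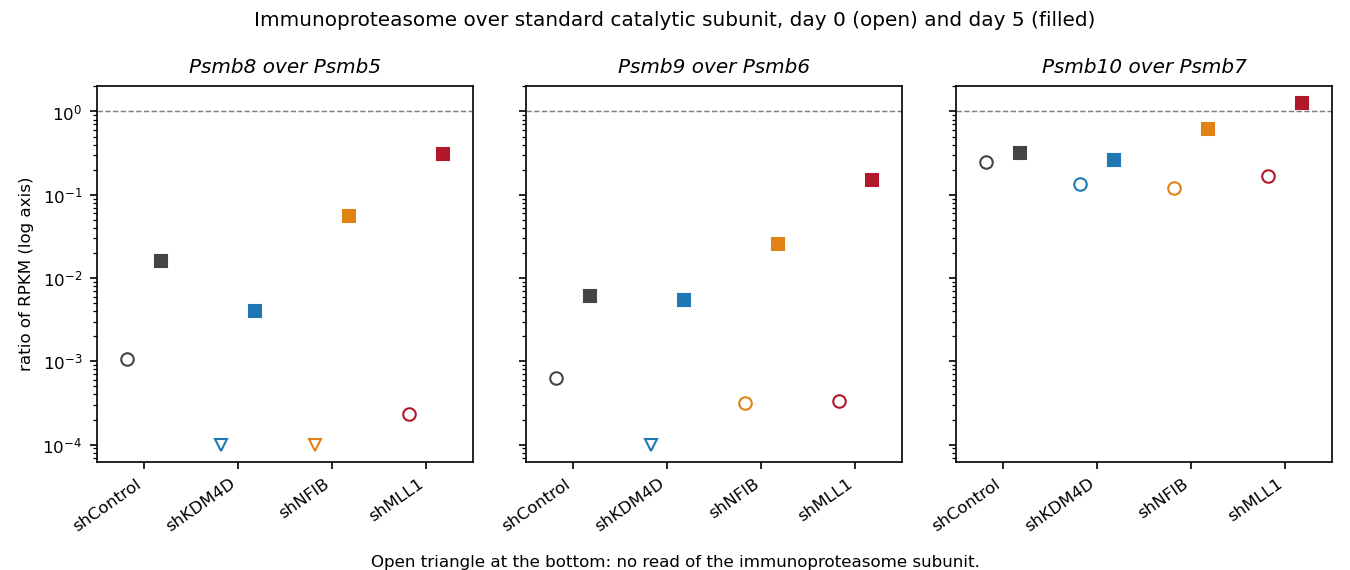
RPKM of each immunoproteasome subunit divided by that of its standard counterpart (log axis) in the 4 lines at day 0 (open circles) and day 5 (filled squares), 1 library each. Triangles at the bottom stand for libraries with no read of the inducible subunit, and the dashed line marks equal RPKM, which was exceeded only by Psmb10 over Psmb7 in shMLL1 at day 5 (1.26).

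Nlrc5, the NLR family protein that drives class I transcription, was below 1 RPKM in every library but shMLL1 at day 5. It was listed at 0.296 and 0.244 RPKM in shControl, 0.325 and 0.223 in shKDM4D, 0.240 and 0.632 in shNFIB, and 0.296 and 2.33 in shMLL1. The 6 lower libraries, which had 38 to 96 reads, were not separated from their neighbours by counting error. At day 5 the log2 ratio to shControl was 1.37 (0.82 to 1.95) in shNFIB and 3.25 (2.80 to 3.75) in shMLL1. Nlrc5 was the only one of the 10 genes whose day 5 level was not above day 0 in shControl and shKDM4D (log2 ratios -0.28 and -0.54, both intervals including 0). 9330175E14Rik, annotated on the opposite strand over 748 bases of Nlrc5, was at 0.451 RPKM in shMLL1 at day 5 and at or below 0.0744 elsewhere. Whether the 2 genes share reads was not tested.

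Counted over the 10 genes, day 5 exceeded day 0 by more than 2-fold in 6 genes of shControl, against 13.0% of all genes (8.56% lower). The other 4 were B2m, Tapbp, Psmb10 and Nlrc5. In shKDM4D 7 genes did so (background 12.8% higher and 8.44% lower), in shNFIB all 10 (12.6% and 4.96%) and in shMLL1 all 10 (20.4% and 6.89%). The median log2 ratio of the 10 genes was 5.18 in shMLL1, 3.08 in shNFIB, 1.59 in shControl and 1.32 in shKDM4D, beside medians of 0.17, 0.10, 0.03 and 0.03 over all genes. Psmb8 and Psmb9 passed the RPKM minimum only through shNFIB and shMLL1 at day 5, and Nlrc5 only through shMLL1 at day 5, so these genes had to be high in the libraries named. The ratios of Psmb8 and Psmb9 between the days also rest on 0 to 4 reads at day 0.

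Each knockdown line was compared with the same shControl library of its day, so the 3 ratios of a day share their denominator. At day 0, 2 genes were more than 2-fold lower in shKDM4D, where 4.26% of all genes were lower and 1.98% higher. These were Psmb8 and Psmb9, with 0 reads against 4 each. In shNFIB the 2 lower genes (background 6.05% lower, 2.95% higher) were again Psmb8 and Psmb9, at 0 and 1 reads. In shMLL1 4 genes were more than 2-fold lower (background 7.43% lower, 1.67% higher), namely Tap1, Tap2, Tapbp and, at 1 read, Psmb8. The median log2 ratio of the 10 genes at day 0 was -0.49 in shMLL1, -0.23 in shNFIB and -0.02 in shKDM4D. The shNFIB median turned to 0.41 when levels were divided by those of Gapdh. A gene with 0 reads entered these medians with 3 reads taken for the 0. Psmb8 and Psmb9 thus entered the shKDM4D median at 0.03 each, although counted as lower above. With a pseudocount of 0.1 the median was -0.40 in shKDM4D and -0.26 in shNFIB.

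At day 5 only Psmb8 was more than 2-fold lower in shKDM4D (background 4.57% lower, 1.88% higher), and the median log2 ratio was -0.25. In shNFIB 8 genes were more than 2-fold higher (background 5.54% higher, 5.67% lower), the exceptions being Tap2 and Tapbp, with a median of 1.26 beside 0.09 over all genes. In shMLL1 9 genes were higher (background 5.25% higher, 4.02% lower), the exception being Tapbp, with a median of 2.93 beside 0.07. Within day 5, shMLL1 also lay above shNFIB in every gene, from 1.28-fold for Tapbp and 1.61-fold for B2m to 8.24-fold for Psmb9. The adipocyte marker sum was 777 RPKM in shControl and 38.6 or lower in all 3 knockdown lines at day 5. Pparg made up the largest part of the sums of shMLL1 (7.22 of 12.3 RPKM) and shNFIB (7.48 of 12.0). Other adipocyte markers differed between the knockdown lines at day 5. Fabp4 was at 9.34 RPKM for shKDM4D, 1.75 for shMLL1 and 0.380 for shNFIB, and Adipoq at 9.01, 0.570 and 0.229 in that order. A low sum therefore does not place these lines at the same differentiation state. The part of differentiation state in the class I ratios was not tested.

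**Figure D3:**
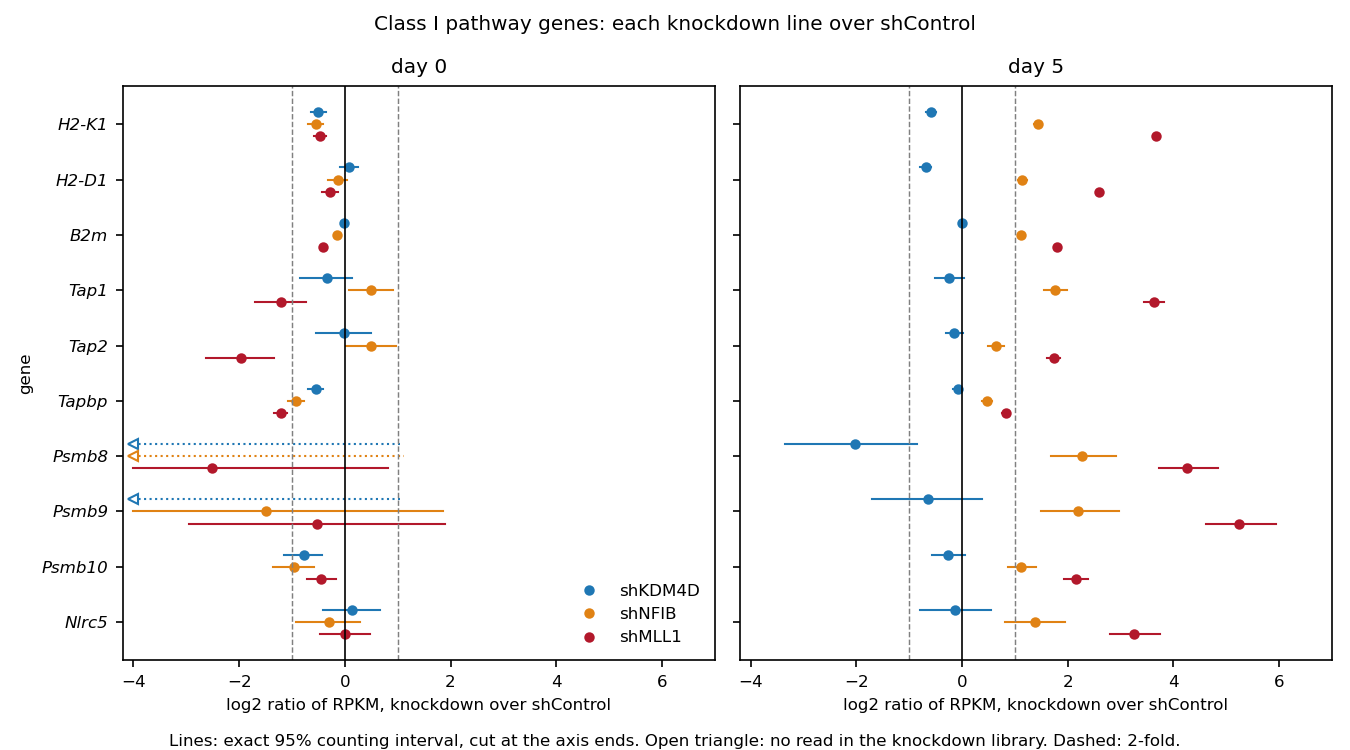
Log2 ratio of RPKM of each knockdown line to shControl at day 0 (left) and day 5 (right) for the 10 genes, 1 library per line and day, with exact 95% counting intervals. Dashed lines mark 2-fold, and open triangles with dotted lines mark no read in the knockdown library. At day 5 the shMLL1 points lie between 0.82 and 5.24 and the shNFIB points between 0.47 and 2.27, while those of shKDM4D lie at or below -0.01.

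Other class I heavy chain genes were compared from a list of 19 class I and class I-like genes, of which 18 were in the tables and 13 exceeded RPKM 1 in at least 1 library. In shMLL1 at day 5, 10 of the 13 were more than 2-fold above shControl and none below, with a median log2 ratio of 2.93. In shNFIB 6 of the 13 were higher and none lower (median 0.87), and in shKDM4D 3 were lower and none higher (median -0.59). Of all genes, 5.25% were higher in shMLL1, 5.54% higher in shNFIB and 4.57% lower in shKDM4D. H2-Q2, H2-Q10 and H2-T10 passed RPKM 1 through shMLL1 at day 5 alone. H2-Q7 passed it through shNFIB and shMLL1 at day 5 alone, so these genes had to be high in the libraries named. H2-Q4 stood at 187 RPKM in shMLL1 at day 5, 57.8 in shNFIB, 20.3 in shControl and 8.66 in shKDM4D. H2-T23, the mouse Qa-1 heavy chain, was at 151, 46.1, 25.1 and 14.6 RPKM in the same order. H2-T24 was at 19.5, 14.9, 2.16 and 0.848 RPKM, so its shNFIB level came close to that of shMLL1. H2-Q1 and H2-Q7 reached 14.6 and 6.04 RPKM in shMLL1 at day 5 and stayed at or below 3.38 elsewhere. Some class I-like genes with other ligands were within 2-fold of shControl. Fcgrt, the neonatal Fc receptor, was at 103 RPKM in shControl and 73.1 in shMLL1 at day 5, and Mr1, which presents vitamin B metabolites, at 12.2 and 9.46 RPKM.

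Standard proteasome genes differed little between libraries. None of the 17 standard proteasome core and assembly genes with RPKM over 1 differed by more than 2-fold in any of the 10 comparisons, and their median log2 ratio at day 5 was 0.16 in both shNFIB and shMLL1 and -0.14 in shKDM4D. Psma6, the most abundant of them in each day 5 library, was at 151 RPKM in shControl and 168 in shMLL1 at day 5. Of 16 proteasome activator and regulatory particle genes none differed by more than 2-fold between a knockdown line and shControl at day 5. Psme1 and Psme2, the subunits of the interferon-inducible PA28 activator, were at 98.8 and 41.6 RPKM in shControl, 143 and 69.8 in shNFIB and 154 and 55.0 in shMLL1 at day 5. Between day 0 and day 5 in shMLL1, Psme1 went from 27.0 to 154 RPKM, Psme2 from 10.5 to 55.0 and Psme4, the PA200 activator gene, from 18.1 to 8.38. In shNFIB Psme1 and Psme2 were also more than 2-fold higher at day 5 (143 against 45.8 and 69.8 against 18.3 RPKM). Psme1 was past 2-fold in shControl (98.8 against 44.6) and shKDM4D (83.0 against 39.2) as well. Psme2 stayed within 2-fold in these lines (41.6 against 25.0 in shControl and 29.6 against 17.1 in shKDM4D). Of the 9 loading and trimming partners, Erap1, the peptidase that trims peptides in the endoplasmic reticulum, was just over 2-fold higher in shNFIB at day 5 (10.0 against 4.85 RPKM) and reached 8.46 in shMLL1. The chaperones Calr (1192 RPKM in shControl and 1296 in shMLL1 at day 5) and Hspa5 (233 and 301) and the peptidase Ide (7.22 and 8.48) stayed within 2-fold of shControl in all lines at day 5.

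Upstream regulators were read from a list of 26 genes, of which 22 exceeded RPKM 1. At day 5, 4 of the 22 were more than 2-fold above shControl in shNFIB and 4 in shMLL1, and none was lower. Irf7, Irf9 and Stat2 were among them in both cases. Of all genes, 5.54% were higher in shNFIB and 5.25% in shMLL1. Irf7, a transcription factor of the interferon response, was at 80.6 RPKM in shMLL1 at day 5, 13.3 in shNFIB, 1.89 in shControl and 1.21 in shKDM4D. Stat2, which acts below the type I interferon receptor, was at 41.8, 23.3, 6.54 and 5.27 RPKM in that order, and its partner Irf9 at 33.0, 26.7, 7.91 and 8.16. Irf1, which binds class I and immunoproteasome promoters, was at 15.7, 11.3, 10.8 and 8.89 RPKM and thus within 2-fold of shControl. At day 0 Irf7 was more than 2-fold below shControl in all 3 knockdown lines, and Irf9 also in shMLL1 (log2 ratio -1.16). Ifng had 0 reads in all 8 libraries, which allows up to 3 reads in each. Ifnb1 had 1 read in shMLL1 at day 0, 3 at day 5 and none elsewhere.

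A list of 20 interferon-stimulated genes outside the pathway was counted in the same way. At day 5, 18 of the 20 were more than 2-fold above shControl in shNFIB (median log2 ratio 3.33) and 20 of the 20 in shMLL1 (median 4.52). In shKDM4D 4 were lower and none higher (median -0.62). Of all genes, 5.54% were higher in shNFIB, 5.25% higher in shMLL1 and 4.57% lower in shKDM4D. Rsad2 passed RPKM 1 through shMLL1 at day 5 alone. Cxcl10, Ifi44, Oas2 and Mx1 passed it through shNFIB and shMLL1 at day 5 alone, so these genes had to be high in the libraries named. Isg15, a ubiquitin-like modifier, was at 192 RPKM in shMLL1 at day 5, 76.6 in shNFIB, 3.70 in shControl and 1.90 in shKDM4D. Usp18, which removes that modifier, was at 66.7, 17.0, 1.11 and 0.630 RPKM, Ifi44 at 79.8, 11.1, 0.633 and 0.898, and Mx2 at 25.2, 12.4, 1.13 and 0.730. Iigp1, an immunity-related GTPase, was at 175, 14.4, 10.9 and 1.13 RPKM, so that shNFIB lay within 2-fold of shControl. At day 0, 16 of the 20 were more than 2-fold below shControl in shKDM4D and none above, where 4.26% of all genes were lower. In shNFIB 12 were below and 1 above (6.05% and 2.95% of all genes), and in shMLL1 12 were below and 2 above (7.43% and 1.67%). The higher genes were Mx1, at 3 and 8 against 2 reads, and in shMLL1 Rsad2, at 3 reads against 1. The medians of the 20 genes at day 0 were -1.97 in shKDM4D, -1.50 for shNFIB and -1.25 for shMLL1. They rank a gene with 0 reads in the knockdown library as lowest. The medians of the 10 class I pathway genes given above take 3 reads for a 0, so the measures differ.

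**Figure D4:**
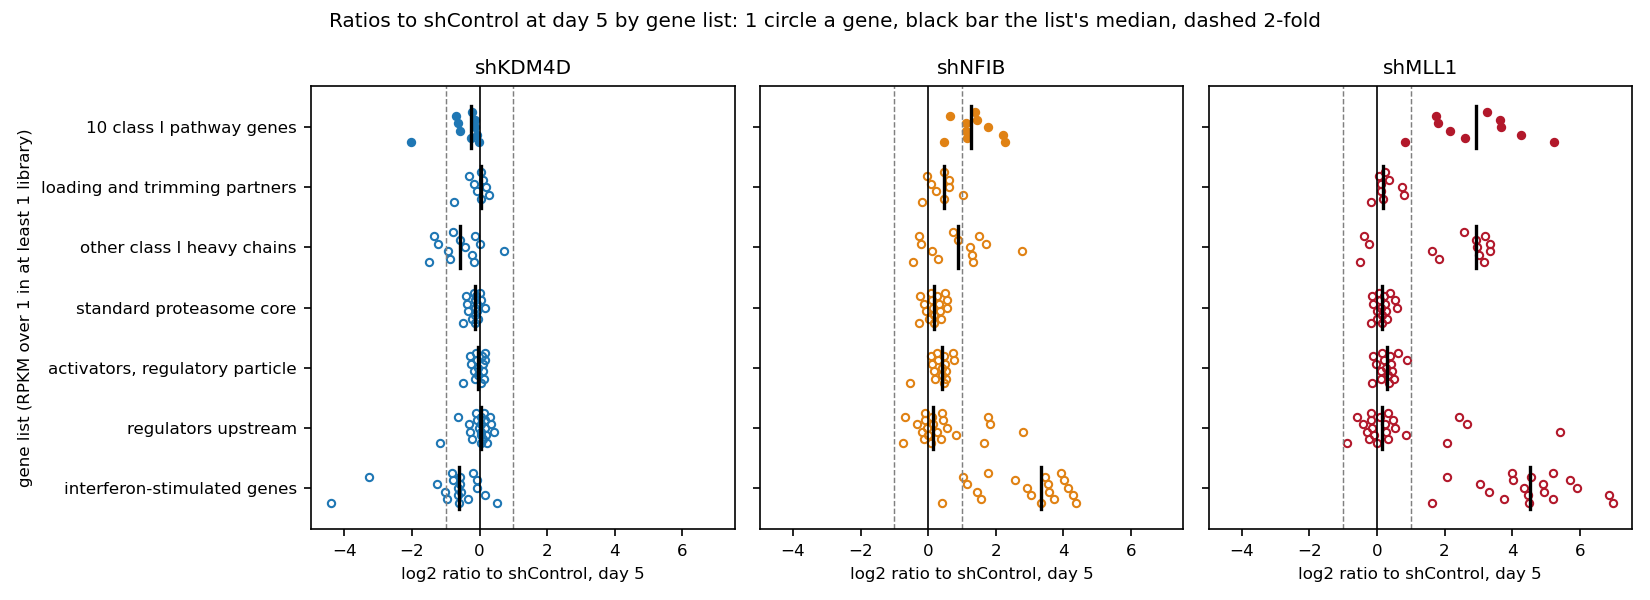
Log2 ratio to shControl at day 5 in shKDM4D, shNFIB and shMLL1 (1 library each) for the 10 class I pathway genes (filled) and for 6 gene lists (open), 1 circle per gene with RPKM over 1 in at least 1 library, with the list's median as a black bar and 2-fold as dashed lines. Rsad2, with no read in shControl, is not drawn. The standard proteasome core stays between the dashed lines in all panels, and the interferon-stimulated genes lie farthest to the right in shMLL1, with a median of 4.52.

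Across the 8 libraries, each of the 10 genes was compared with the mean of all 10 (each gene's log2(RPKM + 0.1), centred on its own mean). Pearson's r lay between 0.850 for Nlrc5 and 0.996 for H2-D1. Each of the 10 is part of that mean, which raises its r, whereas the other genes named next are not part of it. The search covered 5912 genes, the 10 included, with RPKM over 1 in at least 1 library and a range of at least 1 on this scale. Outside the 10, the 5 most alike were Trim34a (r = 0.996), Gm8909 (0.995), H2-Q1 (0.994), H2-Bl (0.994) and H2-Q7 (0.990). These correlations describe 8 libraries that share lines and days whose highest point is shMLL1 at day 5 for all 10 genes. Trim34a was at 12.3 RPKM in shMLL1 at day 5, 5.24 in shNFIB, 2.02 in shControl and 1.86 in shKDM4D. H2-Q1 and H2-Q7 belong to the class I genes whose sequence is shared in part with H2-K1 and H2-D1.

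Markers of cells that carry high class I and immunoproteasome levels were read beside these results. The summed RPKM of 8 leukocyte markers lay between 0.586 and 2.24 in all 8 libraries and was 1.51 in both shNFIB and shMLL1 at day 5, below the 1.79 of shControl. Ptprc, the pan-leukocyte CD45 gene, had 0 to 2 reads in each library and none at day 5. The sum of 8 class II and antigen presenting cell markers was 1.12 to 18.7 RPKM in 7 libraries and 74.3 in shNFIB at day 5, where Cd74, the invariant chain, alone stood at 63.5 RPKM. H2-Aa had 40 reads and H2-Ab1 10 reads in that library, and Cd86 had none in any. The 4 endothelial markers summed to at most 1.72 RPKM. Ly6a (Sca-1), listed among the mesenchymal markers, was at 927 RPKM in shMLL1 at day 5, 340.2 in shNFIB, 136 in shControl and 109 in shKDM4D. Thy1 did not follow the class I levels across lines, because it was near 0 in shKDM4D as well as in shNFIB.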

How the data were processed

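RNA of 8 libraries was prepared with the RNeasy plus mini kit and a stranded SMARTer kit and sequenced on a HiSeq 2500. The authors mapped reads to GRCm38 (mm10) with CLC Genomics Workbench 11.0.1 and deposited RPKM values per gene symbol. The annotation release and the strand setting of the counting were not given in the sources used here, and quantile normalization named in the methods was not visible in the deposited RPKM. Reads were recovered from the deposited RPKM with exon lengths of GENCODE M21. 95.95 to 96.4% of values between 1 and 1000 reads lay within 0.02 of a whole number. For H2-K1, Tapbp, Psmb8 and Psmb9 the length that gives whole reads was used (2608, 1648, 2736 and 3659 bases). Log2 ratios of RPKM, without a pseudocount, carry exact Clopper-Pearson 95% intervals conditional on the summed reads (scipy 1.17.1), and levels carry exact Poisson intervals. With 1 library a group no p-value was computed. A gene at 0 in 1 library counts as past 2-fold, and its bound takes 3 reads for the 0. The medians of the 10 genes use that bound, whereas the medians of the lists rank such a gene as highest or lowest. The scripts were tested on simulated data. Alternatives were quantile and median-of-ratios scaling, Gapdh, pseudocounts of 0.1 and 1, a 1.5-fold threshold, intervals without 0 and no RPKM minimum. The 10 genes and all lists were chosen with earlier results of these data known. Named were all 10 genes and the 5 genes most alike in pattern. In each list up to 5 genes above RPKM 5 in a library and past 2-fold in a comparison were named. These were the ones with the largest ratio or, where none passed, the gene with the highest RPKM in any library. Fcgrt, Mr1, H2-Q2, H2-Q10, H2-T10, the marker genes, Mx1, Rsad2, Cxcl10, Oas2, Ifng, Ifnb1, Gm15821 and 9330175E14Rik were named after their values were seen. 1 gene that the naming rule gives is not reported here. 50-base stretches were compared over all M21 transcripts.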

Additional observations from a re-analysis of the deposited data

Results flagged for a closer look

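Tap1 and Tap2 in shMLL1 were more than 2-fold below shControl at day 0 and more than 2-fold above it at day 5, with counting intervals on either side of 0. The log2 ratio to shControl was higher at day 5 than at day 0 by 4.84 for Tap1 (-1.21 to 3.63) and by 3.70 for Tap2 (-1.97 to 1.73). With 1 library for each line and day the difference between the days was not tested.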

How the results depend on the processing

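No paired analysis was possible because each line and day is 1 library without a replicate number. The counts of genes past 2-fold moved by more than 1.5 times as follows. With a pseudocount of 1, the day 5 over day 0 counts were 3 in shControl (6 without it) and 4 in shKDM4D (7 without it), the day 0 counts against shControl were 1 in shMLL1, 0 in shNFIB and 0 in shKDM4D, and the day 5 count of shKDM4D was 0. With a pseudocount of 0.1 the day 0 counts were 2 in shMLL1, 0 in shNFIB and 0 in shKDM4D. Requiring a counting interval without 0 left 0 genes in shKDM4D and 0 in shNFIB at day 0. A 1.5-fold threshold gave 4 genes in shNFIB at day 0 and 4 in shKDM4D at day 5. The counts for shNFIB and shMLL1 at day 5 stayed within 1.5 times under each setting run, and no ratio past 2-fold turned its sign. Quantile normalization shifted the median over all genes by at most -0.27 on the log2 scale, median-of-ratios scaling by at most -0.21 (both between the days in shMLL1) and division by Gapdh by between -0.56 and 0.64. Ratios of single genes moved beyond their counting interval in 44 of 94 under Gapdh, 30 under a pseudocount of 1, 22 under quantile normalization, 13 under median-of-ratios scaling and 6 under a pseudocount of 0.1. Depth limits Psmb8 and Psmb9 at day 0, where 0 to 4 reads were counted.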
